A study of Mus musculus with 24 samples.

Results

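The genes that set the chambers of the mouse heart apart were followed in the hearts, skeletal muscles, brains and livers of WT and *Rap1* KI/KI mice. All 9 genes fixed by name were found, *Nppa*, *Nppb*, *Myl7*, *Myl4*, *Sln*, *Myl2*, *Irx4*, *Myh6* and *Tnni3*, among 21368 named genes on the array. They were chosen by name, for their known chamber, with earlier results of these data known, and every probe whose accession belongs to them was taken, 10 of 55681 probes, with 2 for *Myh6* and 1 for each of the other genes. All 10 were well above background in all 6 hearts, none was saturated on any array, and none had a missing value.

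The study read RNA of 6 male mice, 3 per genotype, on Agilent arrays of 1 color, with an array for each mouse and tissue and 24 in all. Below, the WT animals are WT1, WT2 and WT3 and the *Rap1* KI/KI animals KI1, KI2 and KI3, and the animal numbers in the labels tie the same 6 mice to all 4 tissues. The age was 5 months for WT1 and KI1 and 2 months for the remaining 4. *Rap1* KI/KI mice carry on both alleles a point mutation, I312R, that takes the shelterin protein RAP1 off the telomere by breaking its contact with TRF2. The WT mice carry the unchanged gene. The labels call the genotypes RAP1 WT and RAP1 MUT. They name no treatment. The knock-in is germline, so all cells of the mouse carry it and the line was crossed back to C57BL/6N mice 4 times. The labels give the tissue as heart and do not name the chambers it held. Levels are on a log2 scale and set each processed signal against the 75th percentile of its array. A level of 0 is that percentile, 1 unit is a 2-fold difference, and levels of different probes are not comparable with each other. P-values measure the spread between these mice, and with 3 mice per genotype and age mixed within the genotypes that spread includes age.

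The atria and the ventricles contract with different versions of the same machinery. Atrial muscle uses the light chains *Myl7* and *Myl4* and the calcium pump inhibitor sarcolipin (*Sln*), and it stores and secretes atrial natriuretic peptide (*Nppa*). Ventricular muscle uses the regulatory light chain *Myl2* under a program that includes the Iroquois factor *Irx4*. *Nppb* encodes B-type natriuretic peptide, which is made by stretched myocardium of either chamber. *Myh6*, the main myosin heavy chain of the adult mouse heart, and *Tnni3*, cardiac troponin I, belong to both chambers, and a sample of heart RNA therefore reads as a mixture of chambers through the first groups and as cardiac muscle through the last.

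Promoter sequence from RefSeq (GRCm38.p6) was at hand for 8 of the 9 genes, and the 250 bases before the annotated start are shown for *Nppa*, *Nppb*, *Myl7* and *Irx4*. *Nppa* and *Nppb* are shown because they are neighbors on chromosome 4, with *Nppb* first, and moved in opposite directions in one heart. *Myl7* is shown as an atrial gene that was nearly absent there, and *Irx4* as the gene whose genotype groups did not overlap. Capitals mark matches, on either strand, to motifs of factors known from the heart and of the core promoter. The GATA motif was searched as AGATAA or AGATAG, and equally with a first T, as TGATAA and TGATAG. The T-box motif was searched as GGTGTGA, where the factor TBX5 of the developing heart is one that binds. For the NKX2 family of homeobox factors the letters were TNAAGTG, with any base at the N. The TATA box, where transcription is set up, was searched as TATAAA. A serum response element and a MEF2 motif were searched by their usual consensus. The regions are chr4:148000472-148000721 (plus strand) for *Nppa*, chr4:147985650-147985899 (plus) for *Nppb*, chr11:5898783-5899032 (minus) for *Myl7* and chr13:73260247-73260496 (plus) for *Irx4*.
Nppa: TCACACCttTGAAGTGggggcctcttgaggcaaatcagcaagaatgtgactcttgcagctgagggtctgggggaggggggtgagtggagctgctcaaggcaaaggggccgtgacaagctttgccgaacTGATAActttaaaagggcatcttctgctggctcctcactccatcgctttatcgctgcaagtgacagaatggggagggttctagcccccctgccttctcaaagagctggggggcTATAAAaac
Nppb: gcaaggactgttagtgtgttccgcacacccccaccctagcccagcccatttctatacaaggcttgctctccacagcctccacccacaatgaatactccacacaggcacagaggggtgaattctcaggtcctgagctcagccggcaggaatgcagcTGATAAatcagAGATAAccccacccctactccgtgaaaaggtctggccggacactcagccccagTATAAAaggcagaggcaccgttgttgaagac
Myl7: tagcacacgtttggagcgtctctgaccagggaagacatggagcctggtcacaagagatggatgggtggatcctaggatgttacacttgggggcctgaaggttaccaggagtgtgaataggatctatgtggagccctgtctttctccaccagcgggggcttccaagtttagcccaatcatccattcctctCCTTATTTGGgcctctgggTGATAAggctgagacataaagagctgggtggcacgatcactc
Irx4: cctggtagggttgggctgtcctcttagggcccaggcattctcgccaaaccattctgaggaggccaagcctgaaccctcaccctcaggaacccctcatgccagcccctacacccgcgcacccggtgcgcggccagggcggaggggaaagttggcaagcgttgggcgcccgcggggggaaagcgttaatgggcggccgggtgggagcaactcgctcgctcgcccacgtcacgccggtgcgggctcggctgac

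The *Nppa* window held a T-box match at 250 to 244 bases before the start, an NKX2 match at 241 to 235, a GATA match at 122 to 117 and a TATA box at 9 to 4. The *Nppb* window held 2 GATA matches, at 95 to 90 and 84 to 79, and a TATA box at 31 to 26. *Myl7* had a serum response element at 61 to 52 and a GATA match at 42 to 37. *Irx4* had none of these letters in the window, of which 68.8% were G or C. Of all 32851 promoter windows of this length, 26.5% held a GATA match, 3.33% a T-box match, 10.1% an NKX2 match, 12.4% a TATA box, 1.47% a serum response element and 2.92% a MEF2 match. No MEF2 match was found for any of the genes. These matches describe the letters only.

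One heart stood apart from the other 5. In the heart of WT1, *Sln*, *Myl7* and *Myl4* were nearly lost while *Myl2*, *Myh6* and *Tnni3* were at the level of the other hearts. *Sln*, which slows the SERCA calcium pump in atrial muscle, was at -2.60 in WT1, 7.49 in WT2 and 8.32 in WT3, and at 7.46, 6.58 and 8.32 in KI1, KI2 and KI3. The WT1 heart minus the mean of the other 5 was -10.23, or 1203-fold lower, where the other 5 varied with an SD of 0.72. This was the lowest position of any of 34823 probes compared in this way, and *Myl7* was next.

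*Myl7*, the atrial regulatory light chain, was at -2.41 in WT1, 6.64 in WT2 and 7.47 in WT3, and at 6.67, 5.03 and 8.33 in KI1, KI2 and KI3. The same difference was -9.24 for WT1, 603-fold lower, with an SD of 1.22 among the other 5. *Myl4*, the atrial essential light chain, was at 1.60, 8.56 and 9.34 in the WT hearts and at 8.50, 8.03 and 9.01 in KI1, KI2 and KI3, with a difference of -7.09 for WT1, 136-fold lower, and an SD of 0.50. This was the fourth lowest position. In each of these genes the WT1 heart lay outside the other 5, which held both genotypes.

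*Nppa*, the hormone of the atrial granule, fell less by its probe. Its processed signal was 106500 in WT1, 293100 in KI2 and 454300 to 495200 in the remaining hearts. Whether such bright signals were compressed, which would make the fall look smaller, was not tested. The levels of *Nppa* were 7.0, 8.84 and 9.72 in WT1, WT2 and WT3 and 8.77, 8.86 and 9.18 in KI1, KI2 and KI3. WT1 was the lowest heart, with a difference of -2.08 from the mean of the others or 4.22-fold lower, with an SD of 0.40 among the others, and 835th from the bottom of the same 34823 probes. The WT1 heart still held *Nppa* above every muscle, brain and liver, the highest of which was -2.10. In contrast, its *Sln* was below the level in the muscle (1.13) and the brain (-1.15) of the same mouse, and its *Myl4* was below that in its brain (4.32) and its muscle (2.03).

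*Nppb* had its highest level in the WT1 heart, at 6.45, against 4.90 and 5.47 in WT2 and WT3 and 4.63, 2.93 and 5.10 in KI1, KI2 and KI3. That is 1.85 above the mean of the other hearts, which varied with an SD of 0.98. The neighboring natriuretic peptide genes therefore moved in opposite directions in this heart. *Myl2* was at 8.82, 8.49 and 9.13 in the WT and 8.44, 9.02 and 8.51 in the *Rap1* KI/KI hearts, with WT1 0.10 above the mean of the others. *Irx4*, the ventricular transcription factor, was highest in WT1, at 3.03, with 2.74 and 2.81 in the other WT hearts and 2.17, 2.54 and 1.32 in the *Rap1* KI/KI hearts.

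The genes shared by both chambers were even across the hearts. *Myh6* was at 8.94, 8.56 and 9.35 in the WT and 8.51, 9.12 and 8.72 in the *Rap1* KI/KI hearts, and WT1 differed from the mean of the others by 0.08. *Tnni3* was at 8.63, 8.24 and 8.91 in the WT and 8.20, 8.68 and 8.20 in the *Rap1* KI/KI hearts, a difference of 0.19 for WT1. In neither gene was WT1 the highest or the lowest heart. The second probe of *Myh6* was at 4.4, 3.67 and 5.98 in the WT and 3.97, 4.84 and 4.62 in the *Rap1* KI/KI hearts, again with WT1 inside the range of the others.

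**Figure D1:**
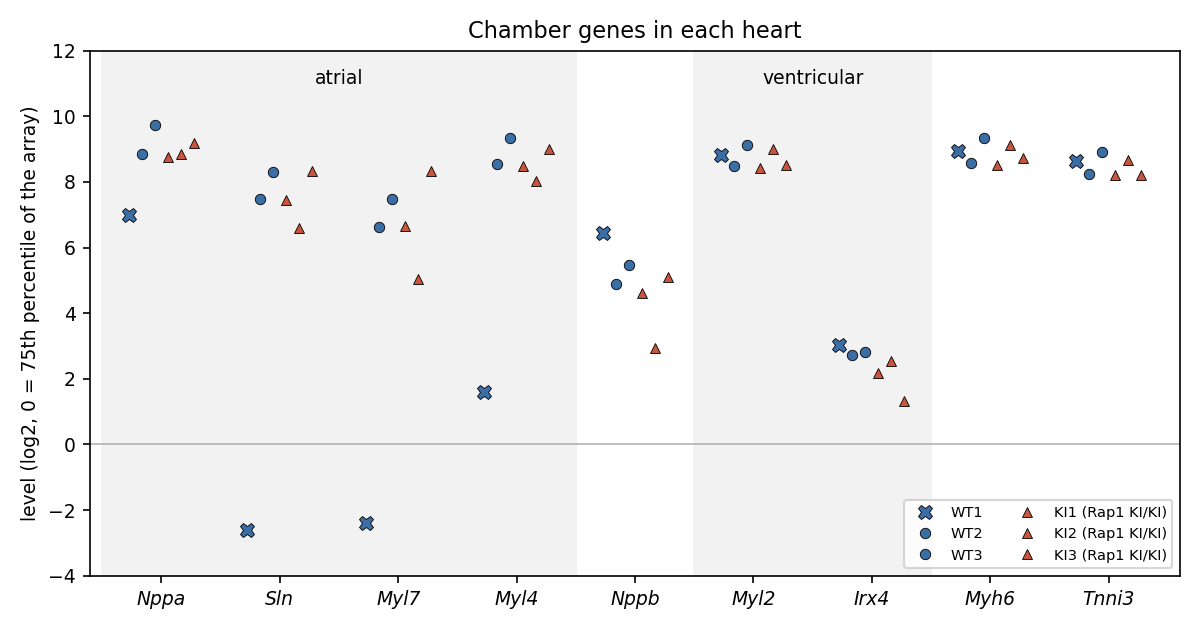
Log2 level of each chamber gene (y axis, 0 is the 75th percentile of the array) in the 6 hearts, with 1 point per array, WT in blue (WT1 as a cross) and *Rap1* KI/KI as red triangles. *Sln*, *Myl7* and *Myl4* were at -2.60, -2.41 and 1.60 in WT1 and at 5.03 or higher in the other hearts.

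The mean over *Nppa*, *Myl7*, *Myl4* and *Sln*, each relative to its own mean over the 6 hearts, gives an atrial level for each heart. It was -5.97, 1.02 and 1.85 in WT1, WT2 and WT3 and 0.99, 0.26 and 1.85 in KI1, KI2 and KI3. The same mean over *Myl2* and *Irx4* was 0.34, 0.03 and 0.38 in the WT and -0.28, 0.20 and -0.67 in the *Rap1* KI/KI hearts. Thus WT1 was far below the other hearts in the atrial mean and inside their range in the ventricular mean, although its *Irx4* alone was above theirs. KI1, the other 5-month-old mouse, and WT2 and KI2, the 2-month-old mice on the same slide as WT1, were all above it by more than 6 units in the atrial level. In bulk RNA, fewer atrial cells and less RNA per atrial cell cannot be told apart.

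Genes known from atrial muscle that are not among the 9, listed with earlier results of these data known, were also mostly low in WT1. Of 15 such genes, 12 had their lowest level in the WT1 heart and none the highest, against 20.3% and 24.8% of all 34823 probes, and the median difference between WT1 and the other hearts was -2.20, against 0.06 over all probes. Among the 4 of them with the smallest p between genotypes were *Nr2f2*, *Fgf12* and *Dkk3*. *Dkk3* was at -0.39 in WT1 and at 4.47 to 6.62 in the other hearts, and *Fgf12* at -4.79 against 0.05 to 3.62. The atrial transcription factor *Nr2f2* (COUP-TFII) was at 0.86 against 1.25 to 2.81. *Hamp* and *Mybphl*, chosen after their values were seen, differed from the mean of the other hearts by -7.48 and -7.05. *Kcna5*, chosen in the same way, differed by 0.15.

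Ventricular and pan-cardiac genes were not low in the same heart, while markers of several other cell types were. For all counts in this paragraph, 20.3% of all 34823 probes had their lowest and 24.8% their highest level in WT1. Of 10 further ventricular genes, none had its lowest and 5 had their highest level in WT1, with a median difference of 0.71. The summed level of the 11 pan-cardiac sarcomere genes, as a multiple of the 75th percentile, was 3803 in WT1, within the 2713 to 4689 of the other hearts. All 6 white fat cell markers were lowest in WT1, where their summed level was 1.16, against 30.7 in WT2, 27.3 in WT3 and 36.0 to 382 in KI1, KI2 and KI3. Of these, *Adipoq*, *Plin1*, *Cidec*, *Cfd* and *Retn* were well above background in all 6 hearts, and *Lep*, the gene of the hormone leptin, in 2. All 4 smooth muscle markers, all 4 fibroblast markers and 4 of 5 mesothelium markers were lowest in WT1 as well, with summed levels of 69.7, 225 and 7.05, against 107 to 356, 316 to 414 and 12.5 to 31.0 in the other hearts. The endothelial markers, at 49.5, were within the 24.3 to 54.0 of the others. Of 6 sinus node and conduction genes, 3 had their lowest level in WT1, and *Hcn4*, which defines the node, was at background in all hearts. The part of these other cell types in the low atrial levels was not tested.

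**Figure D2:**
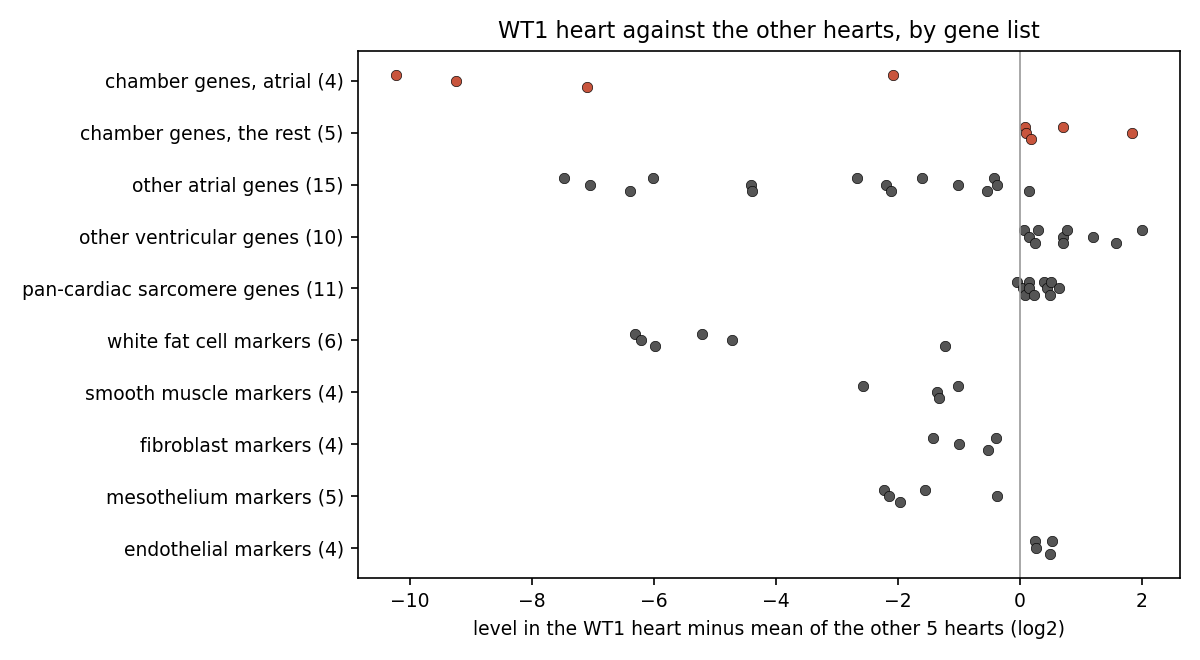
Level in the WT1 heart minus the mean of the other 5 hearts (x axis, log2), with 1 point per gene and 1 row per list (number of genes in parentheses; points are spread vertically for legibility). The 4 atrial chamber genes run from -10.23 to -2.08, and the ventricular and pan-cardiac lists lie near or above 0.

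Whether the chamber genes differed between *Rap1* KI/KI and WT hearts was tested with limma over all probes well above background in at least 3 hearts. None of the 9 passed an adjusted p of 0.05, where 0% of 34848 probes did, and the lowest adjusted p of the 9 was 0.65. At an unadjusted p under 0.05 there was 1 of 9, *Irx4*, against 7.51% of all probes, and the genotype groups did not overlap for the same 1 of 9, against 14.7% of all probes. The count of calls among the 9 genes is therefore close to the background. Of the 9, 5 were lower in *Rap1* KI/KI hearts, with a median difference of -0.16, against -0.02 over all probes.

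*Irx4* was at 2.86 on average in WT and 2.01 in *Rap1* KI/KI hearts, and every *Rap1* KI/KI heart was below every WT heart. The difference was -0.85 (standard error 0.34, 95% interval -1.65 to -0.05, n = 3 per genotype), or 0.556-fold, with an adjusted p of 0.65 by limma. It stayed negative with each mouse left out, from -1.11 to -0.50. KI3 was the lowest heart, and without it the difference was -0.50 (standard error 0.26). On the slide that held WT1, WT2, KI1 and KI2 it was -0.53, and on the slide with WT3 and KI3 it was -1.49.

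*Nppb* had the largest decrease, from 5.61 to 4.22, a difference of -1.39 (standard error 0.64, 95% interval -2.90 to 0.12, adjusted p = 0.65). The groups overlapped, since KI3 was above WT2. WT1 was the highest and KI2 the lowest of the 6 hearts, and the difference was -0.96 without WT1 (standard error 0.65) and -0.74 without KI2 (standard error 0.50). With WT2 left out the groups were apart, as for 32.2% of all probes, and the difference was -1.74. With KI3 left out they were also apart, as for 17.4% of all probes, and the difference was -1.83. It was -1.90 on the first of these slides and -0.37 on the second.

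The 4 atrial genes were higher on average in *Rap1* KI/KI hearts, and for each of them this rested on the WT1 heart. *Sln* differed by 3.05 (standard error 2.71), *Myl7* by 2.78 (2.53), *Myl4* by 2.02 (1.90) and *Nppa* by 0.42 (0.65), with adjusted p from 0.76 to 0.86. Without WT1 the same differences were -0.45 (0.55), -0.38 (0.90), -0.43 (0.40) and -0.35 (0.34), so that the sign of all 4 turned. On the slide with WT3 and KI3, which WT1 was not on, the differences were 0.01, 0.86, -0.32 and -0.55. The 95% intervals without WT1, -1.77 to 0.88 for *Sln*, -2.57 to 1.81 for *Myl7*, -1.39 to 0.53 for *Myl4* and -1.18 to 0.48 for *Nppa*, leave room for differences of 2-fold in these hearts.

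*Myl2*, *Myh6* and *Tnni3* differed little between the genotypes. Their differences were -0.16 (standard error 0.27), -0.17 (0.28) and -0.23 (0.26), with 95% intervals of -0.79 to 0.48, -0.84 to 0.51 and -0.86 to 0.39. The second *Myh6* probe gave -0.21 (standard error 0.59). After quantile normalization the differences of *Myl2*, *Myh6* and *Tnni3* shrank to -0.018, -0.023 and -0.096. Their processed signals in the hearts ran from 311600 to 383800, 351800 to 408500 and 250500 to 331300. The percentile used for scaling ran from 569 to 1107. Whether the levels of these bright probes follow that percentile was not tested. Without WT1, all 9 genes were lower in *Rap1* KI/KI hearts, with a median of -0.38, but none had an unadjusted p under 0.05, where 4.09% of all probes did, and the groups were apart for 1 of 9, against 19.8%.

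**Figure D3:**
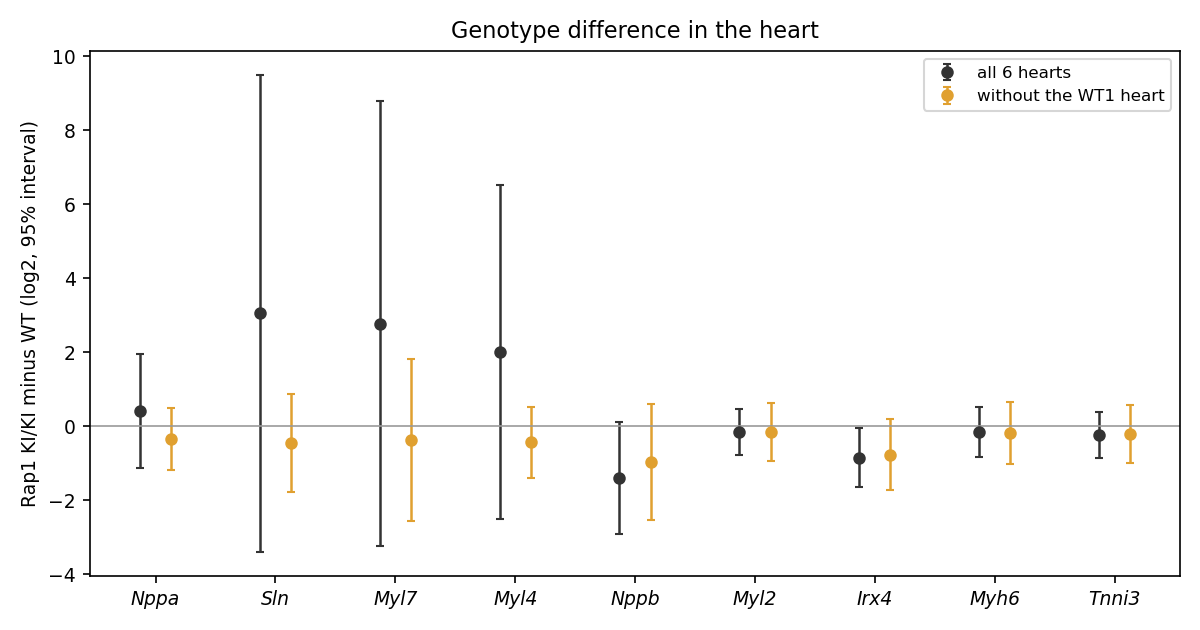
Difference between *Rap1* KI/KI and WT hearts (y axis, log2) for each chamber gene by limma, with all 6 hearts (black) and without the WT1 heart (yellow); bars are 95% intervals. The differences of *Sln*, *Myl7*, *Myl4* and *Nppa* turn from positive to negative without WT1, and their intervals shrink.

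Fat cell transcripts varied widely between the hearts. The summed level of the 6 white fat cell markers was highest in KI3 (382) and KI1 (170), and lay between 1.16 and 36.0 in the other 4 hearts. All 5 markers tested had an unadjusted p under 0.05, against 7.51% of all probes, and none an adjusted one. Their median difference was 3.82, and 2.48 without WT1, where 1 of 5 had an unadjusted p under 0.05, against 4.09% of all probes. Markers of the same cell type are not independent of each other. *Adipoq* was at -4.23, 0.72 and -0.15 in the WT and 4.05, 0.42 and 4.86 in the *Rap1* KI/KI hearts, and *Ucp1*, the uncoupling protein of brown fat, was above 4 in KI1 and KI3 only. Without the hearts of KI1 and KI3, *Nppb* differed by -2.67 (standard error 0.68) and *Irx4* by -0.31 (0.38), with adjusted p of 1 for both by limma, where the single *Rap1* KI/KI heart left is assumed to vary like the WT hearts. KI1 and KI3 were also the lowest hearts in *Irx4*. The part of fat tissue in these differences was not tested.

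Around *Irx4* lies the Iroquois family of homeobox factors, of which *Irx1*, *Irx2*, *Irx3* and *Irx5* stood among the 10 further ventricular genes. *Irx1* was at 2.13, 0.70 and 1.05 in the WT and 0.31, -0.65 and -0.83 in the *Rap1* KI/KI hearts, a difference of -1.69 (standard error 0.46). *Irx2* was at 0.27, -0.57 and -0.79 in the WT and -1.10, -1.56 and -2.54 in the *Rap1* KI/KI hearts, a difference of -1.37 (0.44), and *Irx5* differed by -1.04 (0.34). In all of these, as in *Irx4*, the *Rap1* KI/KI hearts lay below the WT hearts, and the adjusted p was 0.65 each. Over all probes, the groups were apart for 14.7%. *Irx3* differed by -0.52 (0.29), with groups that overlapped. Without WT1, *Irx1*, *Irx2* and *Irx5* differed by -1.27, -1.06 and -0.80. *Irx1* alone of the 10 kept an unadjusted p under 0.05 there, where 4.09% of all probes had one. Of the 10 ventricular genes, none passed the adjusted threshold and 8 were lower in *Rap1* KI/KI hearts. An unadjusted p under 0.05 was found for 3, all of them lower, against 7.51% of all probes. *Irx2* is the neighbor of *Irx4* on chromosome 13.

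Among other genes known to rise with wall stress, some went the same way as *Nppb* and some the other way. Of 10 such genes, none passed the adjusted threshold, 6 were lower and 4 higher. An unadjusted p under 0.05 was found for 2, *Myh7* and *Acta1*, against 7.51% of all probes. *Myh7*, the slow myosin heavy chain next to *Myh6* on chromosome 14, was at 4.64, 5.68 and 5.72 in the WT hearts. In the *Rap1* KI/KI hearts it was at 4.46, 2.99 and 3.17, a difference of -1.81 (standard error 0.48, adjusted p = 0.65 by limma). All *Rap1* KI/KI hearts were below all WT hearts, where 14.7% of all probes had groups apart. *Acta1*, skeletal alpha actin, was at 5.02, 4.87 and 6.47 in the WT and 4.88, 3.65 and 2.04 in the *Rap1* KI/KI hearts, a difference of -1.93 (0.76) with overlapping groups. *Ankrd1* and *Xirp1* differed by -0.82 (0.35) and -0.67 (0.32). Without WT1, *Myh7* differed by -2.17 and *Acta1* by -2.14. By contrast, *Ccn2*, *Timp1*, *Postn* and *Fhl1* of the same list had positive differences of 0.26 to 0.50, named here after their values were seen.

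**Figure D4:**
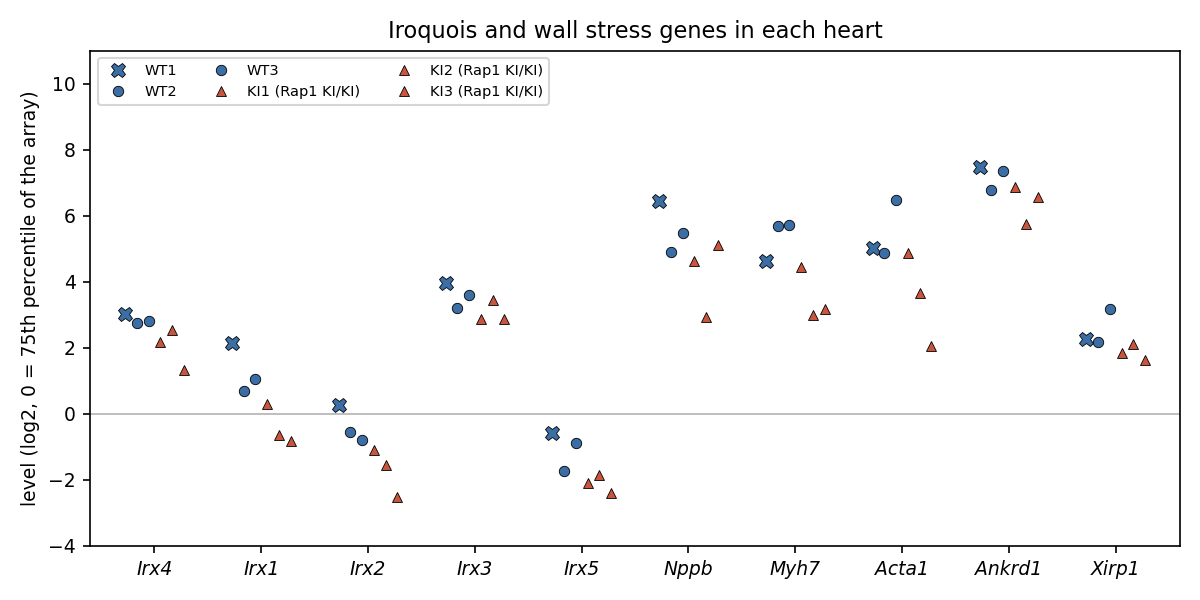
Log2 level (y axis, 0 is the 75th percentile of the array) of *Irx4* with the other Iroquois genes, and of *Nppb* with *Myh7*, *Acta1*, *Ankrd1* and *Xirp1*, in the 6 hearts, with 1 point per array, WT in blue (WT1 as a cross) and *Rap1* KI/KI as red triangles. The *Rap1* KI/KI hearts lie below the WT hearts for *Irx4*, *Irx1*, *Irx2*, *Irx5*, *Myh7* and *Xirp1*, and overlap them for the others. Of all probes tested in the heart, 14.7% had groups apart.

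The receptors and proteases of the natriuretic peptides showed no call. Of 10 genes of this system, 8 were tested, 5 were higher and 3 lower, and none had an unadjusted p under 0.05. The differences were 0.45 (standard error 0.26) for the receptor *Npr1*, 0.56 (0.41) for the clearance receptor *Npr3*, -0.48 (0.34) for the protease *Furin* and 0.54 (0.47) for *Mme*, the peptidase neprilysin. Of the SERCA pumps, their small regulators and the calcium-binding proteins of the sarcoplasmic reticulum, 7 were tested. All 7 were lower in *Rap1* KI/KI hearts, with a median of -0.18, against -0.02 over all probes. An unadjusted p under 0.05 was found for 2, against 7.51% of all probes, and an adjusted one for none. These 2 were *Casq2*, the calcium store of the sarcoplasmic reticulum, at -0.67 (0.25), and *Atp2a1*, at -0.70 (0.28). Without WT1, none of this list had an unadjusted p under 0.05, where 4.09% of all probes did. Of 11 pan-cardiac sarcomere genes, all were lower, with a median of -0.24, against -0.02 over all probes. The share of all probes that were lower was not counted. Levels of bright probes may follow the percentile used for scaling, which was tested neither for this list nor for *Myh6* above. An unadjusted p under 0.05 was found for 2, against 7.51% of all probes. These were *Tnnc1* at -0.78 (0.24) and *Actn2* at -0.70 (0.25), and without WT1 only *Tnnc1* had one. Of 15 further atrial genes, 13 were higher, with a median of 0.57 that became -0.25 without WT1, and none had an unadjusted p under 0.05. Among 9 paralogues of the chamber genes, only *Myh7* had one.

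Which genes followed the atrial level over the hearts was described by Pearson's r across 14875 other genes. Over all 6 hearts the 10 highest r included those of *Dkk3*, *Dtx1*, *Krt7*, *Arpc1b*, *H19*, *Itgb7*, *Vwf*, *Ccl5* and *Lat*, from 0.98 to 0.99, and the most negative, -0.98 to -0.99, those of *Rhox5*, *Mylk3*, *Tex11*, *Klhl9* and *Srsf10*. *Mylk3* encodes the cardiac myosin light chain kinase and *Dkk3* a secreted protein of the Dickkopf family. All 15 genes at these ends had their extreme in WT1. Each point is 1 array of 1 heart, and genes are not independent replicates. Ranked again over the 5 hearts without WT1, too few for an r to be given, the most like were *Lrrn2*, *Chn2*, *Cpe*, *Gpr162*, *Atp6v0e2*, *Flywch2*, *Pomc*, *Gpx3*, *Rpl3* and *Rnf165*, and the least like *Fmnl2*, *Meiob*, *Zfp870*, *Slc37a2* and *Cd59b*. The lists of 10 had 0 genes in common, so the likeness over 6 hearts rests on WT1. *Gpx3*, a secreted glutathione peroxidase, was at 5.41, 6.24, 5.47, 4.38 and 6.40 in WT2, WT3, KI1, KI2 and KI3.

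The chamber genes were then compared across the tissues of the same mice. In *Rap1* KI/KI mice, all 9 were higher in the heart than in the muscle, the brain and the liver, where limma called 12.7%, 34.3% and 29.5% of 41233 probes higher in the heart, and the heart arrays did not overlap the others in any case. In WT mice, 7 of 9 were higher than in the muscle, 8 than in the brain and 9 than in the liver, against 14.9%, 32.4% and 24.6% of 40758 probes. The ones not called were *Sln* and *Myl4* against the muscle and *Myl4* against the brain. Without WT1, all 9 were higher than in each of the 3 tissues, against 11.6%, 28.6% and 23.6% of probes. The median difference of the 9 was 8.77 against the muscle, 10.82 against the brain and 12.25 against the liver in WT mice and 8.13, 10.89 and 12.27 in *Rap1* KI/KI mice, where the median over all probes was between -0.08 and 0.33. *Nppb* and *Myl7* in the muscle, *Myl7* in the brain and *Sln* in the liver were at background in both genotypes. *Myl2* was at background in the WT liver. For these the size of the difference is only bounded, and 12.25 is the value of *Sln*, with a bound of 10.38. RNA of the heart and the muscle was extracted with a kit for fibrous tissue, and that of the brain and the liver with another, so the kit and these tissues cannot be told apart.

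*Nppa* was at 8.73 ± 0.92 (SD, n = 6) in the heart, -2.58 ± 0.36 in the brain, -3.20 ± 0.23 in the muscle and -4.19 ± 0.55 in the liver. Brain and muscle overlapped, and liver was just below both. Against the muscle it was 11.67 higher in WT (standard error 0.54, 3268-fold, adjusted p = 8.2e-08) and 12.17 higher in *Rap1* KI/KI mice (0.37, 4614-fold, adjusted p = 1.3e-08). Its probe is printed 10 times on the array, those of the other members once.

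*Nppb* was at 4.92 ± 1.16 (SD, n = 6) in the heart, and between -6.44 and -4.63 in the other tissues, which overlapped. It was not well above background on any muscle array. The heart exceeded the muscle at least 1634-fold in WT and at least 863-fold in *Rap1* KI/KI mice. Such a bound divides the mean of the hearts by the dimmest signal still counted above background on the arrays of the other tissue, or by the signal of the probe itself where that was brighter. *Tnni3*, at 8.48 ± 0.30 in the heart, lay between -5.80 and -2.84 in the other tissues. It was 13.06 higher than in the muscle in WT (standard error 0.44), where 2 of 3 arrays measured it above background, and 13.16 in *Rap1* KI/KI mice (0.29).

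*Irx4* was between 1.32 and 3.03 in the hearts and between -5.28 and -3.04 in all other samples. The other tissues overlapped with each other. The heart was 7.32 higher than the muscle in WT (standard error 0.29) and 6.82 in *Rap1* KI/KI mice (0.53), and 7.45 and 6.67 higher than the liver.

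*Myl7* was not well above background in any muscle or brain, but in all 6 livers, where it ran from -5.67 to -3.21. The order was heart, then liver, then both tissues without a measured level. The heart was at least 519-fold higher than the muscle and at least 1277-fold higher than the brain in WT mice, and in *Rap1* KI/KI mice the bounds were 4733-fold and 7221-fold. The WT bounds include the low value of WT1, and the WT call against the muscle was lost without WT2 or WT3 (adjusted p = 0.068 each). Against the liver, the difference was 7.63 in WT (standard error 1.94, adjusted p = 0.0065), 11.05 without WT1 (0.52) and 11.33 in *Rap1* KI/KI mice (0.75). The WT call was lost without WT2 (6.23, adjusted p = 0.11), without WT3 (5.62, adjusted p = 0.11) and with the slide as a block (5.26, adjusted p = 0.25). In the WT1 mouse itself the heart (-2.41) and the liver (-3.21) lay close together.

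*Sln* also regulates the calcium pump of skeletal muscle. Its muscle levels were 1.13, -0.44 and 1.78 in the WT and 1.99, -0.80 and 1.86 in the *Rap1* KI/KI mice, and its brain levels ran from -2.04 to -0.31, overlapping the muscle. No liver measured it above background. The heart was 6.44 higher than the muscle in *Rap1* KI/KI mice (standard error 0.73, adjusted p = 1.1e-04). In WT it was 3.58 higher (2.17, adjusted p = 0.25), where the WT1 heart lay below every muscle, and 7.23 without WT1 (0.68, adjusted p = 5.5e-04). Against the brain it was 6.03 higher in WT (2.17, adjusted p = 0.034), a call lost without WT2 (4.28, adjusted p = 0.27), without WT3 (4.04, adjusted p = 0.28) and with the slide as a block (4.31, adjusted p = 0.16), and 9.77 higher without WT1. The heart exceeded the liver at least 1333-fold in WT and at least 14870-fold in *Rap1* KI/KI mice.

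*Myl4*, which is also made in embryonic muscle, was above background on all 24 arrays. It was at 3.02 ± 0.77 (SD, n = 6) in the brain and 2.66 ± 0.46 in the muscle, which overlapped, and 0.42 ± 0.40 in the liver, below both. WT1 had the highest brain level, 4.32, beside the lowest heart level, 1.60. In *Rap1* KI/KI mice the heart was 5.81 above the muscle (standard error 0.33), 5.98 above the brain (0.33) and 8.18 above the liver (0.33). In WT mice the differences were 3.88 (1.54, adjusted p = 0.084), 2.99 (1.54, adjusted p = 0.12) and 5.99 (1.54, adjusted p = 0.0068), and without WT1 they were 6.03, 5.85 and 8.66. The call against the liver was lost without WT2 (4.95, adjusted p = 0.11) and without WT3 (4.37, adjusted p = 0.12). With the slide as a block it was lost as well (5.80, adjusted p = 0.11), and one against the muscle was gained (6.71, adjusted p = 0.033). That gain rests on the heart of WT3, the only WT heart on the slide of the muscles.

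*Myl2*, which also serves slow skeletal fibers, varied more between the muscles than any other member, with -0.63, 1.17 and 1.72 in the WT and 5.83, -0.54 and 3.27 in the *Rap1* KI/KI mice. The range between KI1 and WT1 was wider than that of the 6 hearts, which lay between 8.44 and 9.13. KI1 was the highest and KI3 the next highest muscle for *Myl2*, and the same held for *Myh7*, *Myl3*, *Tnnc1* and *Tnni1*, genes of slow fibers that were looked up after this was seen. *Myh7* was at 6.26 in KI1, 3.75 in KI3 and -1.54 to 1.14 in the others. The heart was 8.06 above the muscle in WT (standard error 0.52) and 5.80 in *Rap1* KI/KI mice (1.28, adjusted p = 0.0068), a call that was lost without KI2 (3.93, adjusted p = 0.065) or KI3 (6.08, adjusted p = 0.058) and with the slide as a block (5.66, adjusted p = 0.11). In the liver, *Myl2* was above background on 1 of 6 arrays, and the heart was at least 25420-fold higher in WT mice.

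*Myh6* was read by probes that disagreed outside the heart. The brighter one was above background on all 24 arrays, where muscles ran from -1.25 to 2.00, livers from -3.68 to -3.13 and brains from -4.16 to -3.54, with overlap between livers and brains. The second probe was above background in 1 of 6 muscles and 1 of 6 brains, yet in all 6 livers, from -2.68 to -1.93. The heart was 8.77 above the muscle in WT by the first probe (standard error 0.59, adjusted p = 1.1e-06), and at least 892-fold above by the second. In WT mice, both gave a heart above the liver, by 12.40 (0.59) and 7.08 (0.67).

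**Figure D5:**
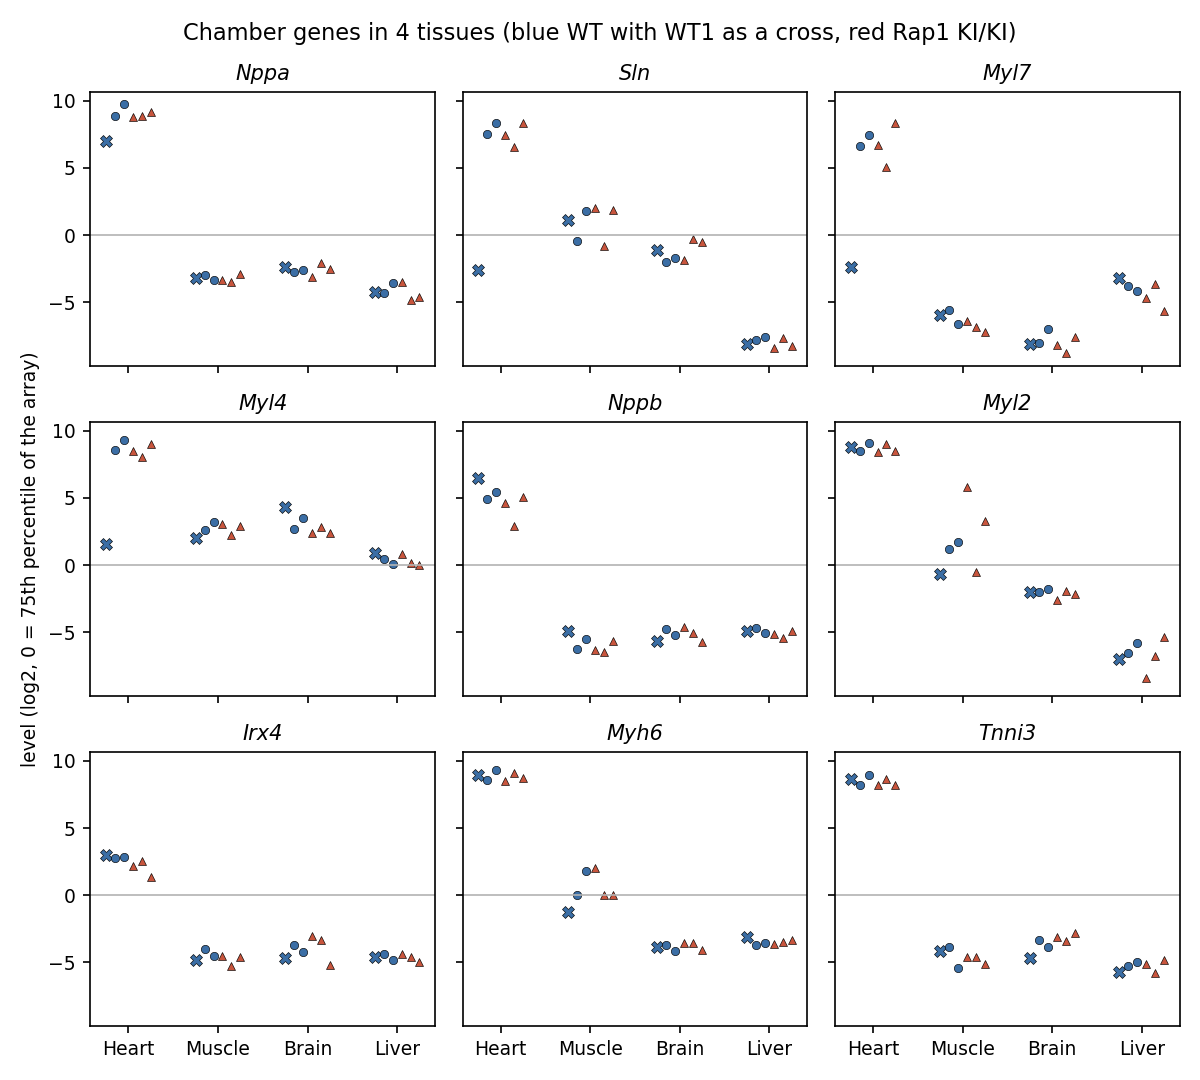
Log2 level (y axis, 0 is the 75th percentile of the array) of each chamber gene in heart, muscle, brain and liver (x axis), with 1 point per array, WT in blue (WT1 as a cross) and *Rap1* KI/KI as red triangles. The hearts lie above the other tissues except for *Sln* and *Myl4* in WT1, and points of *Nppb* in muscle, *Myl7* in muscle and brain and *Sln* in liver are at background.

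Outside the heart, no member tested was called between the genotypes. Of the 7 tested in the muscle, the 8 in the brain and the 7 in the liver, none passed the adjusted threshold (0%, 0% and 0% of probes did), none had an unadjusted p under 0.05 (2.48%, 2.62% and 2.13% did), and none had groups apart (6.44%, 7.73% and 5.84% did). The largest differences were 2.10 for *Myl2* in the muscle (standard error 1.5), -0.97 for *Myl4* in the brain (0.43) and -0.93 for *Myl7* in the liver (0.52). Whether the effect of the genotype in the heart differed from that in the muscle was tested over all 24 arrays, and limma called none of the 7 with a measured level in the muscle (adjusted p = 1.00 for each) and 0% of 36696 probes, with 1103 at an unadjusted p under 0.05. *Myl7* and *Nppb* were at background on all 6 muscle arrays, so no estimate is given for them. The estimate was 2.86 (standard error 2.46) for *Sln* and -2.25 (1.46) for *Myl2*, and between -0.65 and 1.93 for the rest.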

How the data were processed

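RNA of 4 tissues from 6 mice was read on 24 1-color Agilent arrays. The authors deposited intensity values, the processed signals of Feature Extraction 12.0.3.1 after background subtraction and detrending but not normalized across arrays. The score values in their deposited table are z-scores of log10 signals within each array. Control spots and outlier spots were left out here, and spots of a probe averaged. Of 55681 probes, 28331 were named through RefSeq accessions (GRCm38.p6). Levels are log2 ratios of the signal to the 75th percentile of the array, which ran from 569 to 1107 intensity units in the hearts. A probe was tested if well above background on at least 3 arrays of the fit, and the number of arrays limits the precision.

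Genotypes and tissues were compared by two-sided tests of limma 3.58.1 (R 4.3.3, statmod 1.5.0, the data.table package at version 1.17.8), adjusted after Benjamini-Hochberg over all probes tested, at 0.05. The procedure was tested on simulated data. The probe with the highest mean over the hearts represents a gene. All 9 members are named, up to 4 genes of a list (smallest p in the heart), and the 10 most and 5 least like the atrial level, of which 2 genes are not reported here. Members and lists were chosen with earlier results of these data known.

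The alternatives tried were normexp correction of the background at offset 50 (planned on mean and run on median signals, as the files used here hold no mean signal), quantile normalization, z-scores, other filters, the mean over probes, each mouse left out, the mouse or the age as a replicate block, the slide as a block, a fit of all 24 arrays, and eBayes with trend and robust. Slide numbers come from the array barcodes. Liver and muscle arrays each share a slide, and in the brain the slide coincides with age. The muscle slide held 1 heart per genotype, and the liver slide held no heart. With the slide as a block, the difference from the muscle therefore rests on that heart, and the difference from the liver goes through the brain arrays. The mouse ties the tissues by its animal number. Over 36 pairs of tissues of the same mouse, deviations from the group means correlated with a median r of 0.08 (-0.31 to 0.37, 17 above 0.1). Over 72 pairs of different mice of a genotype the median r was -0.08 (-0.37 to 0.40, 17 above 0.1), which centering on the group means lowers. Exact permutation over 3 and 3 mice has a smallest p of 0.1, so none is given.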

Additional observations from a re-analysis of the deposited data

How the results depend on the processing

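The heart was called higher in 24 of the 27 comparisons with other tissues in WT mice and in 27 in *Rap1* KI/KI mice. With the filter that asks for a signal above background on all arrays of a fit, which tested fewer genes, these counts were 10 and 9, and under the other alternatives they ran from 20 to 27 and from 26 to 27. In the heart, no chamber gene was called between genotypes under any alternative (lowest adjusted p 0.47). With each mouse left out, the difference of *Sln* ran from -0.45 to 5.01, of *Myl7* from -0.38 to 4.56, of *Myl4* from -0.43 to 3.44, of *Nppa* from -0.35 to 1.02, of *Myl2* from -0.34 to 0.0029 and of *Myh6* from -0.36 to 0.035. Without WT1 the sign turned for the 4 atrial genes, and without WT3 for *Myl2* and *Myh6*. Without the hearts of KI1 and KI3, an alternative chosen after seeing the data, the differences of *Myl2*, *Myh6* and *Tnni3* turned to 0.21, 0.17 and 0.088. After normexp correction the *Tnni3* effect in the heart minus that in the muscle turned to -0.10, and the cause was not tested. The atrial level of WT1 minus that of the others was -7.16, and -7.39 to -6.92 under the alternatives.

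With the mouse as a replicate block, 24 and 27 tissue comparisons were called in WT and *Rap1* KI/KI mice, as without it, and 0 interactions. With the age as a replicate block, 0 genotype differences were called in any tissue. The slide as a block left 22 calls in WT and 26 in *Rap1* KI/KI mice, where those against the muscle rest on 1 heart per genotype. Leaving out WT2 or WT3, which leaves WT1 with 1 other WT heart, gave 20 calls each, and leaving out WT1 gave 27. Probes at background carry only bounds, and with 3 mice per genotype the intervals of the atrial genes exceed 2-fold.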
